A study of Mus musculus with 4 samples.

Results

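The CD surface antigen genes are described here in bone marrow cells labelled as long-term hematopoietic stem cells (HSCs). The cells came from control mice and from mice that lacked Cpt1a, which encodes the carnitine palmitoyltransferase of the outer mitochondrial membrane. Members were the protein-coding genes whose symbol is Cd, a number and at most a short suffix. Cd27, Cd34, Cd36, Cd48, Cd74, Cd79a, Cd79b, Cd3e and Cd3g were left out by rule, and 77 members are described, of 55401 gene models. Each member was placed in 1 of 8 groups by the lineage or function for which its antigen is best known.

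RNA was sequenced from 2 Control and 2 KO libraries (polyA selection, strand-directional kit) of sorted cells labelled ltHSC that had been kept in RNAlater. Control mice were Cpt1a fl/fl, with the WT genotype on the label, and KO mice were Cpt1a fl/fl with Vav1-Cre+, labelled Cpt1a-KO. Both were adult mice on a C57BL/6 background, so both groups carried the floxed alleles and only the KO carried Cre. Vav1-Cre deletes throughout the hematopoietic system, hence in mature blood cells as well as in HSCs, and the Control cells carried no Cre transgene. HSPCs is the name that the study's own text gives the cells. No label ties the 2 libraries of a group to different mice, and p-values therefore measure only the spread between these libraries, which may be technical.

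CD numbers are given to leukocyte surface molecules that are recognised by a shared cluster of monoclonal antibodies, and sorting schemes for blood cells rest on them. Most mark a branch of the blood: CD22 and CD72 mark the B lineage, CD3 and CD8 mark T cells, CD177 marks neutrophils and CD68 marks macrophages. Others, such as the tetraspanins and CD44, are found on nearly all leukocytes and their progenitors. The study defines long-term HSCs by such antigens. Cells with CD4, CD8, CD11b, Gr-1, B220 or Ter119 are removed, and cells with EPCR, c-Kit and CD150 and without CD48 are kept. The study's text does not state which gate gave these libraries.

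The genes of the antigens that this gate keeps were present in each library. Kit, Procr (EPCR) and Slamf1 (CD150) together reached 287 and 291 TPM (transcript level scaled to gene length and library size) in Control and 297 and 312 in KO. Slamf1 stood at only 2.88 to 4.83 TPM, and Cd48, whose antigen the gate keeps low, at 88.0 and 80.3 TPM in Control and 160 and 146 in KO. Cpt1a itself stood at 37.0 and 35.6 TPM in Control and at 11.5 and 19.2 in KO (log2 fold change −1.60, SE 0.15 and adjusted p = 0.0070), so KO levels lay below Control levels without reaching 0. Library totals were 20589218 and 23291747 expected counts in Control and 34083159 and 33909781 in KO. Control replicate 2 stood apart in immediate early genes, with Fos at 2087 TPM where the other 3 libraries held 79.6 to 107 TPM.

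The CD antigen genes were a small and even share of the transcripts, 0.252%, 0.269%, 0.273% and 0.264% of all counts in Control 1, Control 2, KO 1 and KO 2. Of the 77 members, 55 passed the filter on low counts and were tested, 8 had counts but too few to test, and 14 had no count in any library. Levels spanned the whole range: 6 members averaged 100 TPM or more over the 4 libraries, 27 averaged 10 TPM or more and 33 averaged under 1 TPM. The 6 most abundant were Cd24a, Cd47, Cd52, Cd37, Cd63 and Cd81, of which Cd47, Cd52, Cd63 and Cd81 are broadly expressed on leukocytes.

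**Figure D1:**
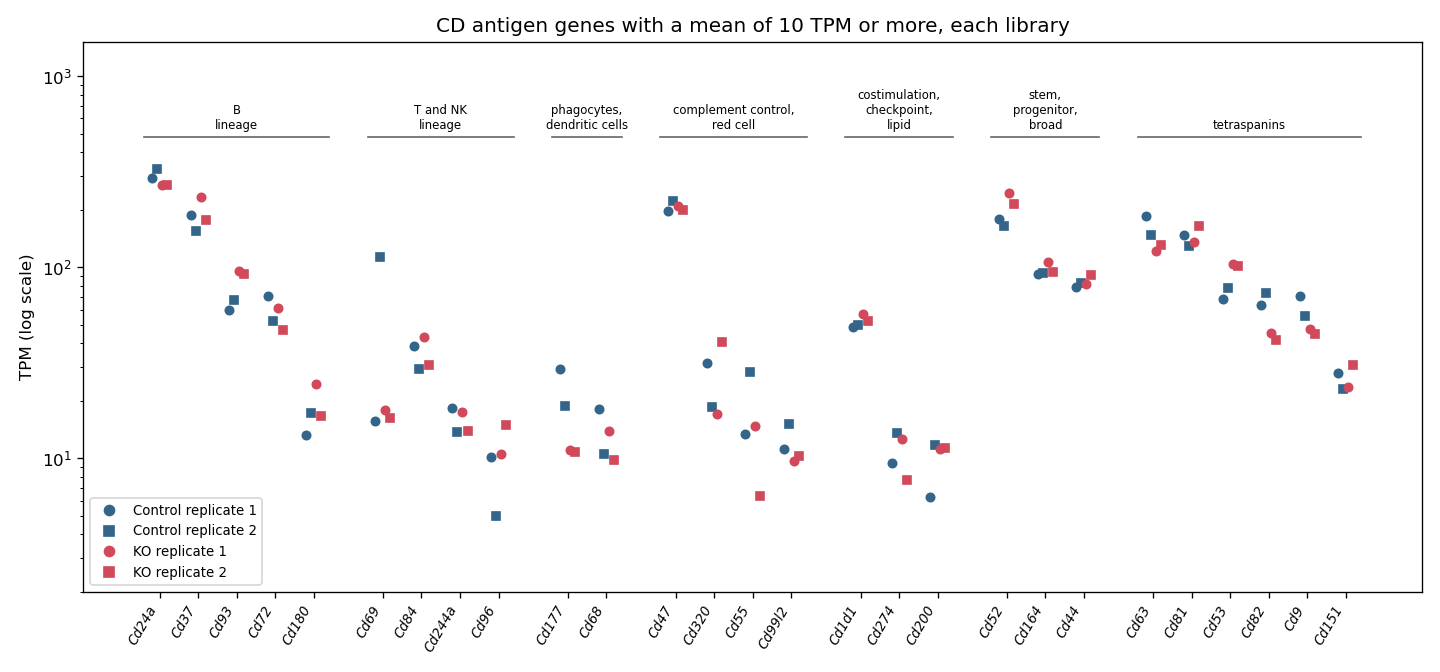
Levels in TPM (log scale) of the 27 CD antigen genes with a mean of 10 TPM or more, grouped by lineage, with 1 point per library (circles replicate 1, squares replicate 2, blue Control, red KO). For most genes the 4 points lie close together, and Cd69 has 1 Control point (113 TPM) far above its other 3 (15.7 to 18.0).

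By edgeR's quasi-likelihood test on the expected counts of all 14635 genes that passed the filter (Benjamini-Hochberg adjusted p under 0.05), 0 of the 55 members described and tested were higher in KO and 0 were lower, beside 0.451% of all genes tested called higher and 0.212% called lower. At an unadjusted p under 0.05, 6 members were higher (10.9%, beside 5.81% of all genes) and 7 were lower (12.7%, beside 4.61%). DESeq2, run as an alternative, called 4 members higher (Cd22, Cd38, Cd53 and Cd93) and 4 lower (Cd177, Cd300a, Cd63 and Cd82), beside 4.46% and 3.69% of the genes that it tested. Cd38, which is also among the 6 above, had no count in Control and passed the filter through KO alone. It could thus be called only as higher, and Cd22 had just 0 and 11 counts in Control. The limma fits on log2 TPM called no gene at all, so they could not set members apart from other genes.

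Fitted log2 fold changes were positive for 32 of the 55 members and negative for 23, with a median of 0.09 beside 0.0087 over all genes tested. Of all 14635 genes tested, 7452 were positive and 7183 negative. CPM (expected counts scaled by library size, not by gene length) of both KO libraries lay above both Control libraries for 20 members (36.4%, beside 22.7% of all genes) and below them for 12 (21.8%, beside 19.3%). The 27 members with 1000 counts or more over the 4 libraries split evenly, 9 above and 9 below, with a median log2 fold change of 0.07. The 28 with fewer counts split 11 above and 3 below, with a median of 0.65, but 6 of those 11 had no count in Control and passed the filter through KO alone, so their direction was fixed by having been tested and the split is no support for a direction. KO libraries were deeper and had counts for 61 and 53 members where Control libraries had them for 49 and 45, and the part of depth in this split was not tested.

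TPM, which also divides by the effective length estimated for each gene in each library, gave 16 members above (29.1%, beside 23.1% of all genes) and 10 below (18.2%, beside 16.8%). The reading was the same on both scales for 45 of 55 members and differed for Cd151, Cd164, Cd180, Cd22, Cd244a, Cd4, Cd47, Cd55, Cd72 and Cd96. Effective length differed 1.5 times or more between libraries for 16 members tested (29.1%, beside 26.3% of all genes), so for these a level in TPM and a level in CPM can order the libraries differently.

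**Figure D2:**
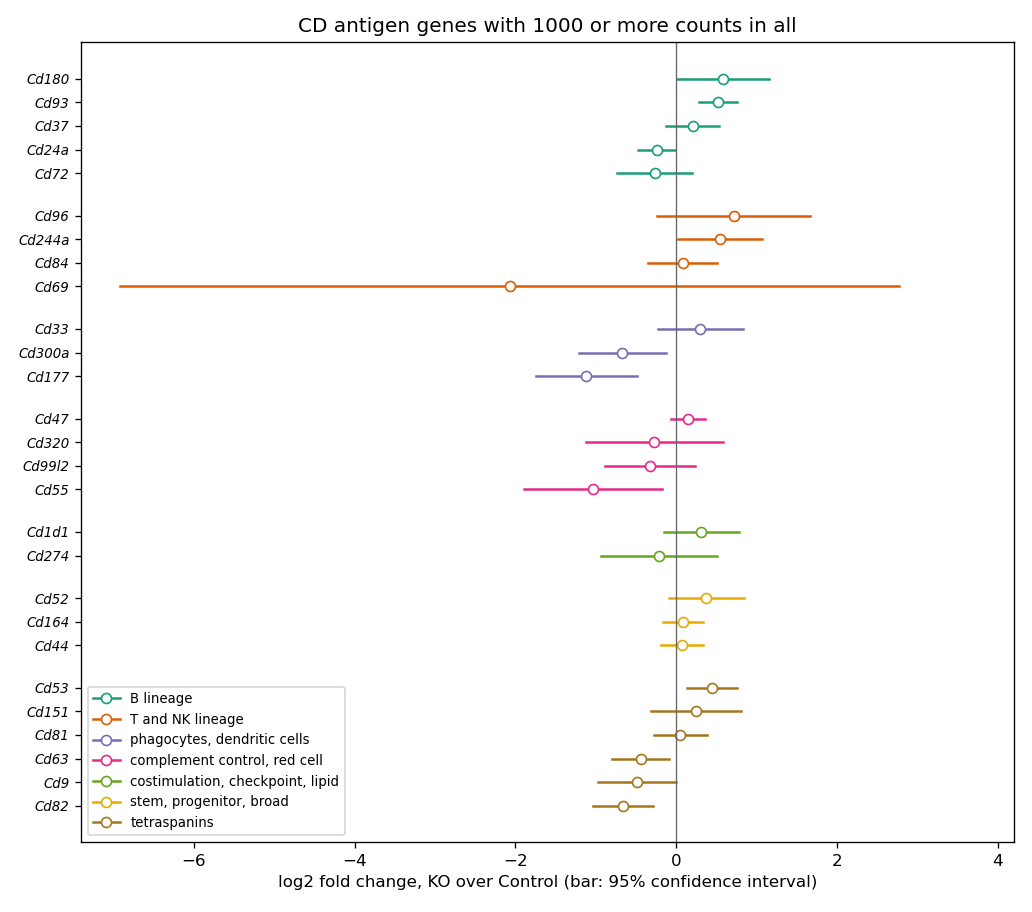
Log2 fold change of KO over Control with its 95% confidence interval for the 27 CD antigen genes with 1000 counts or more over the 4 libraries, coloured by lineage. All points are open, since none of these genes passed the test, and the interval of Cd69, the widest, runs from −6.91 to 2.77.

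In the B lineage group, 6 of 8 members were tested and 0 were called (edgeR, with 3 higher and 1 lower at an unadjusted p under 0.05, and 2 higher by DESeq2). Cd93, the C1q-receptor-like antigen of early B cell and other progenitors, stood at 59.9 and 67.5 TPM in Control and at 95.1 and 92.2 TPM in KO, with both KO libraries higher. Its log2 fold change of 0.52 (SE 0.10) had an adjusted p of 0.106. That gene passed the test without the low-count filter (adjusted p = 0.012) and with DESeq2 (1.2e-06). It did not pass with an effective-length offset (0.352), without robust dispersion (0.187) or in the limma fits (0.406 to 0.526). With 1 library left out, its log2 fold change ran from 0.42 to 0.62. An exact permutation test of 2 against 2 libraries cannot give a p below 0.333.

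Cd22, a sialic acid-binding inhibitory receptor of B cells, had 0 and 11 counts in Control and 145 and 153 counts in KO. On the TPM scale its libraries overlapped (0 and 2.36 against 1.61 and 3.50), and the effective length assigned to Cd22 differed 13.5 times between libraries. The fitted difference, a log2 difference of 4.15 (SE 1.69), had an adjusted p of 0.456. Cd180, a Toll-like receptor homolog of B cells, stood at 13.2 and 17.2 TPM in Control and 24.5 and 16.6 TPM in KO, which overlap, with a log2 difference of 0.58 (SE 0.25) and an adjusted p of 0.465.

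The most abundant antigen of the group pointed the other way. Cd24a (heat-stable antigen) stood at 293 and 325 TPM in Control and at 270 and 270 TPM in KO, a log2 difference of −0.24 (SE 0.10 and adjusted p = 0.460). Cd37, a tetraspanin of mature B cells and other leukocytes, overlapped between groups (188 and 155 TPM against 232 and 176). So did Cd72, an inhibitory coreceptor, on this scale (70.3 and 52.4 TPM against 61.0 and 46.9). Cd40, a receptor for T cell help, and Cd70 had no count in any library. In all, 4 of the 6 tested B lineage members had a positive log2 fold change and 2 a negative one, with a median of 0.36.

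Markers of B cells that are no members were higher in KO. Of 9 such markers, 8 were called higher (88.9%, beside 0.451% of all genes tested). The other, Ms4a1 (CD20), was at 0 in both Control libraries and at 0.19 and 0.45 TPM in KO. Their summed level was 58.7 and 91.4 TPM in Control and 628 and 425 TPM in KO, and their part in the levels of Cd93 and Cd22 was not tested. In bulk samples, more cells of a type and more RNA per cell cannot be told apart, nor fewer cells and less RNA per cell.

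B lineage antigens work beside the B cell receptor's kinases and adaptors, and 13 such partners were tested. All 13 had positive log2 fold changes, beside 7452 of all 14635 genes tested. Their median was 0.24, and 1 was called higher (7.69%, beside 0.451% of all genes tested). Blnk, the adaptor that links the kinase Syk to phospholipase C, rose from 6.82 and 6.06 TPM to 48.6 and 28.4 TPM (log2 fold change 2.52, SE 0.34 and adjusted p = 0.021). Blnk is also among the 9 B cell markers counted above, and without KO replicate 1 none of the partners was called. Syk itself stood at 83.5 and 82.8 TPM in Control and 111 and 112 in KO, a log2 difference of 0.37 (SE 0.09) with an adjusted p of 0.209. Btk and Vav1, which are shared with other blood lineages, lay near 0 on the log2 scale (0.03, SE 0.11, and 0.01, SE 0.10).

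**Figure D3:**
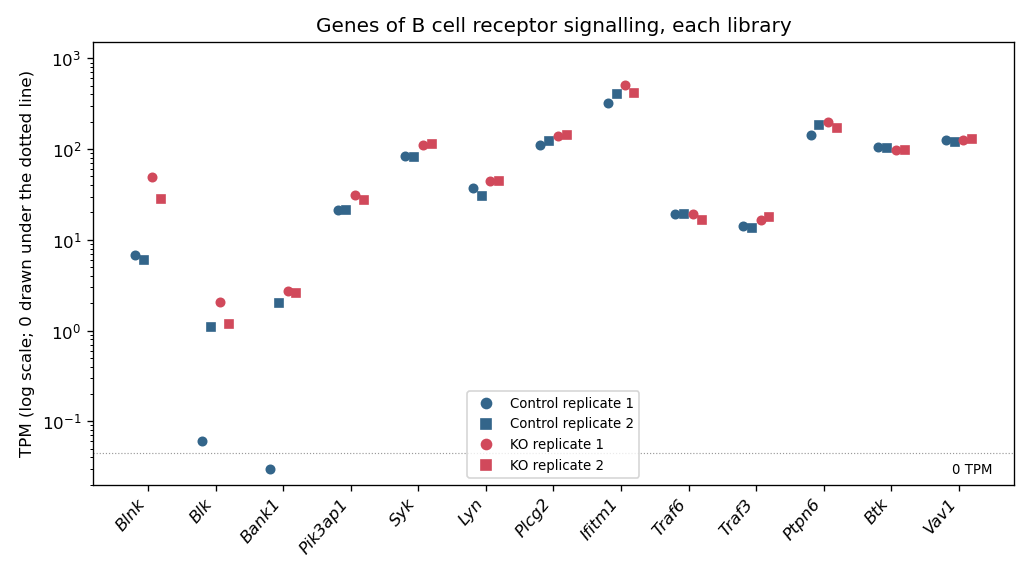
Levels in TPM (log scale) of 13 partners of B cell receptor signalling in each library, in falling order of log2 fold change (blue Control, red KO). Blnk has both KO points (48.6 and 28.4) well above both Control points (6.82 and 6.06), and Btk and Vav1 have all 4 points close together.

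In the T and NK lineage group, 14 of 18 members were tested and none was called (edgeR, 1 at an unadjusted p under 0.05, 0 by DESeq2). Of these, 11 had a positive log2 fold change and 3 a negative one (median 0.74). On CPM, 6 had both KO libraries above Control (42.9%, beside 22.7% of all genes). Of those 6, 3 (Cd160, Cd2 and Cd226) had no count in Control and could be tested only as higher, so neither the tally nor the median is support for a direction. Most stood at a few TPM or less. The defining T cell genes Cd3e and Trac and the member Cd8b1 were at 0 in all 4 libraries, and the summed level of the 12 T and NK markers was 287 and 255 TPM in Control and 229 and 207 TPM in KO, most of it Nkg7.

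Cd244a (2B4), a SLAM family receptor of NK cells and some progenitors, had the smallest p of the group. Its CPM was 24.2 and 20.7 in Control and 31.3 and 34.2 in KO, a log2 difference of 0.54 (SE 0.23 and adjusted p = 0.464). On TPM its libraries overlapped (18.4 and 13.7 against 17.5 and 13.9), and the sign turned in the fits on log2 TPM and with an effective-length offset. Cd84, a SLAM family adhesion receptor, stood at 38.7 and 29.3 TPM in Control and 43.1 and 30.6 in KO, and overlapped between groups.

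Cd4 and Cd8a, whose antigens the study's gate for long-term HSCs removes, gave a low signal. Cd4, the coreceptor of helper T cells, had 84 and 99 counts in Control and 282 and 297 in KO, while its TPM overlapped (5.51 and 2.05 against 4.17 and 7.25). Its log2 fold change was 1.02 (SE 0.48 and adjusted p = 0.520). Cd8a, the coreceptor of cytotoxic T cells, had 37 and 0 counts in Control and 28 and 0 in KO. That gate uses CD4 and CD8 to remove cells, so these low levels are not read as a finding between the groups.

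Cd160, Cd2 and Cd226, receptors of NK and T cells, had no count in Control. Cd160 had 20 and 28 counts in KO, Cd2 had 13 and 34, and Cd226 had 17 and 23. Against a floor of 3 counts over the 2 Control libraries these are at least 10.3-fold, 10.1-fold and 8.61-fold higher. That floor covers counting error only, not the spread between libraries, and adjusted p by edgeR ran from 0.537 to 0.564.

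Cd69, an antigen that appears early in lymphocyte activation, had the widest spread among the members with 1000 counts or more. It stood at 15.7 TPM in Control replicate 1, 113 in Control replicate 2, and 18.0 and 16.2 in KO. Control replicate 2 alone was high, and the other 3 libraries lay close together. The log2 fold change of −2.07 (SE 1.36) had an adjusted p of 0.750. Without Control replicate 1 it was −2.91 (adjusted p = 2.2e-06), and without Control replicate 2 it was 0.23 (adjusted p = 0.749), so 1 library set its direction.

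Like Cd69, the immediate early genes stood high in Control replicate 2. These genes were chosen after their values were seen. Among the remaining libraries, on TPM, Cd69 was lowest in Control replicate 1 (15.7), where Fos (107 TPM) and the other early genes were highest. On CPM, Cd69 was lowest in KO replicate 2 (18.4, beside 18.9 in Control replicate 1 and 26.1 in KO replicate 1). Jun stood at 176 and 1305 TPM in Control and 153 and 123 in KO, and Egr1 at 38.4 and 470 TPM in Control and 18.7 and 14.8 in KO. Fos, Jun, Egr1, Dusp1, Ier2 and Junb each had their highest level in Control replicate 2, and their part in the Cd69 result was not tested.

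**Figure D4:**
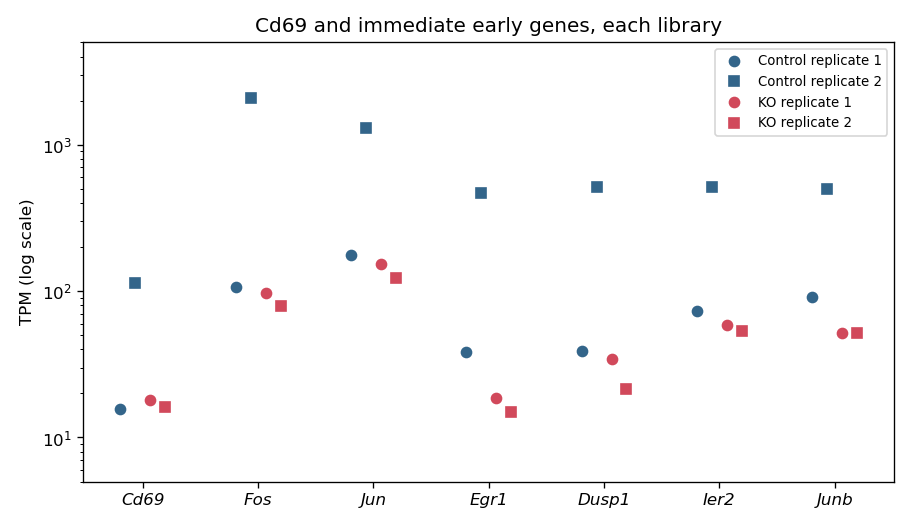
Levels in TPM (log scale) of Cd69 and 6 immediate early genes in each library (blue Control, red KO, squares replicate 2). In each of the 7 genes the Control replicate 2 point lies above the other 3, with Cd69 at 113 TPM against 15.7 to 18.0.

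Among the antigens of phagocytes and dendritic cells, 12 of 23 members were tested and none was called (edgeR, with 2 lower by DESeq2 and, at an unadjusted p under 0.05, 0 higher and 2 lower). Signs were balanced, 6 positive and 6 negative, with a median log2 fold change of −0.11. Cd177, a lipid-anchored glycoprotein of neutrophils, stood at 29.4 and 18.7 TPM in Control and at 11.0 and 10.8 TPM in KO. Both KO libraries were lower, and the 2 Control libraries differed more from each other than the KO libraries did. Its log2 fold change of −1.12 (SE 0.27) had an adjusted p of 0.208, which fell to 0.045 without the low-count filter and 0.00074 with DESeq2. Cd177 did not pass with an effective-length offset (adjusted p = 0.468) or in the limma fits (0.451 to 0.590). With 1 library left out, its log2 fold change ran from −1.41 to −0.75.

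Neutrophil markers lay lower in KO as a sum. Their summed level was 11112 and 7540 TPM in Control and 6004 and 6041 TPM in KO. Each of the 9 tested had a negative log2 fold change, beside 7183 of all 14635 genes tested. Among the 9, only the elastase gene Elane passed the test, beside 0.212% of all genes called lower. Retnlg, of late neutrophils, was at 0 in both Control libraries. The part of these markers in the level of Cd177 was not tested.

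Cd300a, an inhibitory receptor for phospholipids on myeloid cells, stood at 9.59 and 11.4 TPM in Control and at 6.53 and 7.01 TPM in KO. Again both KO libraries were lower, with a log2 difference of −0.67 (SE 0.23 and adjusted p = 0.401). Its relative Cd300c2 had 0 and 0 counts in Control and 12 and 25 in KO, at least 7.96-fold higher against the floor (adjusted p = 0.575). Cd300c2 passed the filter through KO alone, so it could be tested only as higher. Cd33, a sialic acid-binding receptor of myeloid cells, stood at 6.87 and 7.87 TPM in Control and 9.68 and 8.03 in KO (log2 fold change 0.30, SE 0.23 and adjusted p = 0.737).

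Cd68, the lysosomal glycoprotein of macrophages, overlapped between groups (18.0 and 10.5 TPM against 13.9 and 9.79). Cd14 and Cd163, receptors of monocytes and macrophages, lay between 0.77 and 2.82 TPM in each library. Summed macrophage and monocyte markers overlapped too, at 114 and 81.7 TPM in Control and 97.2 and 90.5 in KO. All 7 Cd209 genes, the lectins of dendritic cells and some macrophages, had no count in any library, nor had Cd300c and Cd300e. Cd200r3, a receptor of mast cells and basophils, had 17 and 0 counts in Control and 79 and 55 in KO, a log2 difference of 2.25 (SE 2.14 and adjusted p = 0.814). Beside it, 4 of 9 mast cell and basophil markers were called higher (44.4%, beside 0.451% of all genes tested). Their summed level was 195 and 151 TPM in Control and 498 and 566 in KO, with Cma1 and Tpsb2 at 0 in both Control libraries. Cma1 and Tpsb2 passed the filter through KO alone and could be tested only as higher. The study also names Cma1 among its upregulated genes, so its direction is not independent evidence. The part of the 9 markers in Cd200r3 was not tested.

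The group of complement control and red cell surface antigens had 6 of 8 members tested and none called (edgeR, 1 lower at an unadjusted p under 0.05, 0 by DESeq2). Cd55, decay-accelerating factor, had a CPM of 25.1 and 34.8 in Control but of 19.6 and 9.71 in KO. The groups were apart on CPM and overlapped on TPM (13.4 and 28.2 against 14.8 and 6.38), and the log2 fold change was −1.03 (SE 0.37 and adjusted p = 0.413). Cd59a, the inhibitor of the membrane attack complex, stood at 11.5 and 8.54 TPM in Control and 7.33 and 5.22 in KO, a log2 difference of −0.71 (SE 0.43 and adjusted p = 0.620). Its paralog Cd59b had 55 counts in Control replicate 1 and none elsewhere.

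Cd46, a cofactor for complement breakdown, went the other way. It stood at 1.28 and 0.60 TPM in Control and at 2.73 and 3.31 TPM in KO, a log2 difference of 1.004 (SE 0.56 and adjusted p = 0.583). A same-strand gene model of unclassified type overlaps Cd46, so its low counts are uncertain. Cd99l2, an adhesion molecule related to CD99, stood at 11.2 and 15.1 TPM in Control and 9.64 and 10.3 in KO (log2 fold change −0.33, SE 0.24 and adjusted p = 0.724).

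Cd47, the ligand of the phagocyte receptor SIRPA, was the second most abundant member. It stood at 197 and 222 TPM in Control and at 210 and 199 TPM in KO. The 4 libraries lay close together, the log2 fold change was 0.15 (SE 0.09, 95% confidence interval −0.06 to 0.36), and its sign turned in the fits on TPM. Cd320, the receptor for vitamin B12 bound to transcobalamin, ranged from 17.0 to 40.6 TPM, with both ends of the range in KO. Erythroid markers stood apart between the groups, at a summed 902 and 854 TPM in Control and 277 and 387 in KO. Of the 9 tested, 3 were called lower, beside 0.212% of all genes. Their part in this group's levels was not tested.

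Of the costimulation, checkpoint and lipid presentation antigens, 6 of 7 were tested and none was called (edgeR, 0 at an unadjusted p under 0.05, 0 by DESeq2). Cd1d1, which presents lipids to NKT cells, was the most abundant and stood at 48.4 and 49.6 TPM in Control and 57.0 and 52.5 in KO. Both KO libraries were higher by a small margin (log2 fold change 0.31, SE 0.20 and adjusted p = 0.655). Cd1d1 and Cd55 are 2 of the 3 members whose counts had a posterior spread above 0.5 in RSEM, which shares reads between alike genes, so their values are less certain.

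Cd274 (PD-L1), the ligand of the checkpoint receptor PD-1, stood at 9.42 and 13.5 TPM in Control and 12.7 and 7.69 in KO. Cd86, the costimulatory ligand of CD28, stood at 5.78 and 3.93 TPM in Control and 2.20 and 3.95 in KO. The groups overlapped for both. Cd276 (B7-H3), a B7 family member, stood at 1.98 and 1.60 TPM in Control and 0.51 and 1.29 in KO (log2 fold change −0.99, SE 0.94 and adjusted p = 0.816). Cd83, a maturation antigen of dendritic cells, had no count in Control and 14 and 24 counts in KO, and Cd80 had 7 counts in KO replicate 1 alone.

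All 4 stem, progenitor and broad leukocyte antigens were tested and none was called (edgeR, 1 higher at an unadjusted p under 0.05 and 1 by DESeq2). Cd38, the ectoenzyme that consumes NAD and a marker used to subdivide HSCs, had no count in either Control library and 89 and 63 counts in KO. That is at least 32.7-fold higher against a floor of 3 counts over the Control libraries, at a level of 1.22 and 0.86 TPM. The adjusted p was 0.346 by edgeR and 0.0016 by DESeq2. Cd38 passed the filter through KO alone, so it could be tested only as higher. The floor covers counting error only, not the spread between libraries. Cd38, Cd46, Cd300c2 and Cd40 are in the study's table of changed genes, so the direction of Cd38 is not independent evidence. Cd40 had no count in any library here, so that table and these libraries do not match for it.

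The 3 abundant antigens of the group differed less. Cd52, a short lipid-anchored glycopeptide of lymphocytes, stood at 179 and 163 TPM in Control and 244 and 214 in KO. Both KO libraries were higher, with a log2 difference of 0.37 (SE 0.20 and adjusted p = 0.574). The sialomucin gene Cd164 (91.8 and 93.7 TPM against 107 and 94.8) and the hyaluronan receptor gene Cd44 (78.6 and 82.6 against 81.9 and 90.9) differed by 0.09 (SE 0.11) and 0.07 (SE 0.11) on the log2 scale. Their 95% confidence intervals, −0.16 to 0.34 and −0.19 to 0.33, leave out a change of 1.5-fold in either direction.

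The tetraspanins, small membrane proteins that gather integrins and receptors into patches, were measured best, with all 6 members above 22 TPM in each library. None was called by edgeR, while 1 was higher and 3 were lower at an unadjusted p under 0.05, and DESeq2 called 1 higher and 2 lower. Cd82, which is expressed on long-term HSCs, stood at 63.1 and 73.2 TPM in Control and at 45.1 and 41.6 TPM in KO. Both KO libraries were lower, by a log2 difference of −0.66 (SE 0.16 and adjusted p = 0.204 by edgeR and 1.1e-04 by DESeq2).

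Cd53, a tetraspanin of nearly all leukocytes, differed in the opposite direction. It stood at 68.1 and 78.0 TPM in Control and at 104 and 102 TPM in KO, a log2 difference of 0.45 (SE 0.13 and adjusted p = 0.317). Cd63, a tetraspanin of lysosomes and granules, stood at 186 and 148 TPM in Control and 121 and 131 in KO (log2 fold change −0.44, SE 0.15 and adjusted p = 0.390). Cd9, found on platelets, progenitors and B cells, stood at 70.8 and 55.2 TPM in Control and 47.6 and 44.9 in KO (log2 fold change −0.49, SE 0.21 and adjusted p = 0.472).

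Cd81, a tetraspanin of nearly all cells, overlapped between the groups. It stood at 148 and 129 TPM in Control and 135 and 163 in KO (log2 fold change 0.05, SE 0.14, 95% confidence interval −0.28 to 0.38). Cd151, a partner of laminin-binding integrins, overlapped as well on TPM (28.0 and 23.0 against 23.6 and 30.8). Within the tetraspanin group, then, Cd82, Cd63 and Cd9 lay lower in both KO libraries on both scales and Cd53 lay higher. On CPM, 50% of this group lay lower in both KO libraries, beside 19.3% of all genes, and 33.3% higher, beside 22.7%. These shares leave out Cd37, a tetraspanin placed in the B lineage group, which overlapped between Control and KO on CPM. Marker lists of cells that carry these antigens were also read, and none of their genes was called. Megakaryocyte markers summed to 192 and 163 TPM in Control and 129 and 105 in KO, with 5 of 6 negative. On CPM, 3 of them lay lower in both KO libraries (50%, beside 19.3% of all genes). Of 8 further stem cell markers, 7 were negative and 5 lay lower in both KO libraries on CPM (62.5%, beside 19.3% of all genes). Their sum overlapped between the groups (280 and 358 TPM against 292 and 286). Their part in the levels of Cd82 and Cd9 was not tested.

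Stromal and endothelial antigens had few counts. Cd248 (endosialin), of fibroblasts and pericytes, had 43 and 0 counts in Control and 18 and 0 in KO. Cd109 had 7 counts in KO replicate 1 alone, and Cd164l2 had none. The 8 stromal and endothelial markers summed to 58.4 and 53.2 TPM in Control and 82.8 and 66.8 in KO, most of it Pecam1 (CD31), which blood progenitors also express (56.4 and 48.2 TPM against 79.3 and 65.0). Of the 6 tested, 3 had a positive and 3 a negative log2 fold change, and Pdgfra was at 0 in all 4 libraries.

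Members with counts in some libraries and none in others numbered 21. Of these, 6 had counts in both KO libraries and none in Control and were tested (Cd38, Cd160, Cd2, Cd226, Cd83 and Cd300c2), 5 had counts in KO replicate 1 alone and 2 in Control replicate 1 alone. Cd8a, Cd3d and Cd248 had counts in replicate 1 of both groups and in replicate 2 of neither, a pattern held by 294 gene models in all, beside 117 with the reverse. Cd28, the costimulatory receptor of T cells, had 61 and 17 counts in Control and 63 and 17 in KO, so it too was higher in replicate 1 of each group. Patterns that cross the replicate numbers were not counted, so the 294 and 117 do not show that replicates pair. Genes with at least 1 count numbered 14358 and 14742 in Control replicates 1 and 2, and 16657 and 15346 in KO.

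**Figure D5:**
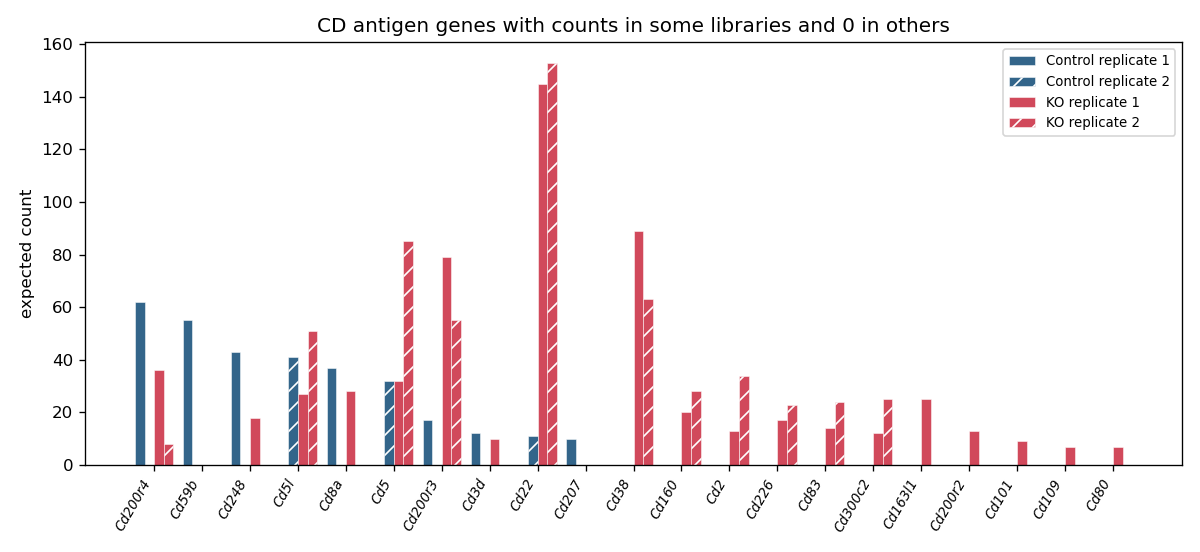
Expected counts in each library (blue Control, red KO, hatched replicate 2) of the 21 CD antigen genes with counts in some libraries and 0 in others. Cd22 (145 and 153) and Cd38 (89 and 63) have the highest KO bars beside 0 to 11 counts in Control.

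Most surface antigens of blood cells have gene symbols of other forms, and 67 of these were read as a second list, nearly all with CD numbers (the list also holds Ermap, a blood group gene, and Fut4, which makes a CD15 sugar). Of 59 tested, 2 rose and 4 fell, beside 0.451% and 0.212% of all genes. Il7r (CD127), the interleukin-7 receptor of lymphoid progenitors, rose from 5.10 and 5.58 TPM to 18.6 and 16.5 TPM (log2 fold change 1.73, SE 0.24 and adjusted p = 0.024). Itga4 (CD49d), the integrin that holds progenitors to VCAM1, rose from 48.9 and 44.8 TPM to 74.8 and 74.4 TPM (log2 fold change 0.61, SE 0.09 and adjusted p = 0.036).

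The 4 that fell were all in the group that the list names red cell surface. Rhd and Rhag, of the Rhesus complex, fell from 45.9 and 31.9 TPM to 7.38 and 7.27 TPM and from 27.9 and 16.0 TPM to 4.68 and 4.32 TPM. Ermap fell from 84.9 and 70.7 TPM to 25.5 and 22.4 TPM. Tfrc (CD71), the transferrin receptor, fell from 63.3 and 88.2 TPM to 53.3 and 48.2 TPM, with adjusted p of 0.0070 to 0.032 over the 4 genes. All 10 tested genes of the red cell surface group had a negative log2 fold change, beside 7183 of all 14635 genes tested. Without KO replicate 1 the list had 1 call and without KO replicate 2 it had 2, all of them lower, so neither Il7r nor Itga4 was called there.

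In the remaining groups of that list nothing was called, and Slamf7 and Thy1 in T and NK cells, Itgam and Sirpa in phagocytes, and Itgb3 in megakaryocytes had adjusted p from 0.544 to 0.878. The other partners, of the T cell receptor (Grap2 and Lcp2 first), Toll-like receptors (Tlr2 and Ly86) and activating adaptors (Hcst and Tyrobp), had adjusted p from 0.247 to 0.809. Grap2, an adaptor of T cells and mast cells, stood at 1.74 and 4.32 TPM in Control and 9.06 and 4.22 in KO, which overlap on this scale.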

How the data were processed

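The authors aligned reads with STAR to mm10 and counted genes with RSEM, per the submitters' processing notes; their versions, the annotation and the strand setting are not given in the sources used. The deposited tables hold the authors' expected count, the RSEM effective length and TPM per gene. TPM was scaled by the authors to gene length and to the same total in each library. Symbols and positions came from GENCODE M21 (mm10) by gene ID, for 55141 of 55401 gene models. The rule found 78 genes, of which 1 is not reported here and stands in no count of members. Members and lists were chosen with earlier results of these data known. Expected counts were rounded. Genes passing filterByExpr (minimum count 10) were tested with edgeR 4.0.16 (TMM factors, 0.985 to 1.01, quasi-likelihood F test with robust dispersion, genotype as the only term) and adjusted by Benjamini-Hochberg over all 14635 genes, called under 0.05 with no fold limit. The common dispersion was 0.222. SE and 95% confidence intervals came from the same fit. Alternatives were DESeq2 1.42.0 (568 genes without an adjusted p), limma 3.58.1 on log2(TPM + 1) and log2(TPM + 0.1), other scalings and filters, an effective-length offset, posterior mean counts, a replicate block and each library left out. The scripts were tested on simulated data. Genes given with values were, by rule: called members, the 4 smallest p and 2 highest mean TPM in each lineage, the gate antigens Cd4, Cd8a and Cd8b1, members that the study names, and, in the other lists, called genes or otherwise the 2 smallest p in each group. Further members are named for completeness. A floor is 3 counts summed over a group. Floors cover counting error only, while the confidence intervals include the spread between libraries that the fit estimates. RSEM's posterior spread was 0 for 72 of 77 members and above 0.5 for Cd55, Cd55b and Cd1d1. An expressed model on the opposite strand overlaps 12 members, Cd37, Cd52, Cd72, Cd81, Cd9, Cd180 and Cd244a among them, and reads of each pair cannot be told apart if strand was not used. Replicate numbers did not pair the libraries (correlation of deviations −0.018).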

Additional observations from a re-analysis of the deposited data

How the results depend on the processing

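Of 583 repeats for single CD antigen genes, 543 kept the direction and the side of the threshold, 14 crossed to a call and 26 turned sign. Members called higher (0 in the fit reported) were 4 with DESeq2, 1 without the filter (Cd93) and 0 to 2 with 1 library left out (Cd22 and Cd93 without Control replicate 2). In the 3 limma fits and with the effective-length offset they were 0, where 4 to 8 were higher at an unadjusted p under 0.05. Members called lower (0) were 4 with DESeq2, 1 without the filter, and 0 to 1 with 1 library left out (Cd69 without Control replicate 1, Cd177 without Control replicate 2). Other surface antigens (6 called) gave 13 with DESeq2, 0 with limma and the offset, and 1 to 9 with 1 library left out. Partners (1 called) gave 5 with DESeq2, 0 with limma and the offset, and 0 to 3 with 1 library left out. The replicate block gave 0, 0, 6 and 1 and changed none of these 4 counts. On log2(TPM + 1), log2(TPM + 0.1), unfiltered TPM and the offset, Cd244a was −0.024, −0.025, −0.024 and −0.048, Cd47 −0.034, −0.035, −0.034 and −0.055, and Cd320 0.12, 0.12, 0.12 and 0.19. With 1 library left out, log2 fold changes ran from −2.91 to 0.23 for Cd69, −0.11 to 0.26 for Cd84, −7.53 to 6.65 for Cd8a, −0.64 to 0.082 for Cd320, −1.62 to 0.030 for Cd86, −0.60 to 0.092 for Cd274, −0.64 to 0.20 for Cd68, −0.032 to 0.18 for Cd44, −7.75 to 6.02 for Cd248 and −0.094 to 0.19 for Cd81. With limma no gene of all 14635 was called, and with the offset 4 were. The causes of these changes were not tested. Of the members tested, 28 had under 1000 counts, and the effect of depth on their values was not tested.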
